A study of Arabidopsis thaliana with 8 samples.

Results

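The class III peroxidases described here are secreted heme enzymes of the plant cell wall. The 52 members were taken by locus identifier from 1 table of 33201 gene rows, in which every member had its own row, and 33 of the 52 had been tested for a change. The study measured RNA by sequencing in cells of Arabidopsis thaliana roots, accession Col-0, at 5 days, sorted from protoplasts by the fluorescence of WOX5::GFP, which marks the quiescent center (QC), the organizing cells at the root tip. The wild type group and the pan mutant group both carried this reporter and had 4 libraries each. The pan mutant is mutated in PERIANTHIA (PAN), a transcription factor of the bZIP class, and the sources used here do not give the kind of lesion. The sort selects cells by reporter fluorescence, so in the mutant it selects whichever cells still fluoresce. The table holds 1 pooled FPKM value per genotype (fragments scaled to transcript length and to the size of the library) and the authors' own test, with no value per library, so no SD or n stands behind any level below. A gene is called here when its q-value, the p-value adjusted for multiple testing in the authors' deposited table, is under 0.05.

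The targeted gene and markers of the stem cell niche were looked at first. PAN fell from 19.996 to 0.265 FPKM (q of 0.0386) per the authors' deposited table. WOX5, whose promoter drives the sorting reporter, fell from 205 to 8.27 FPKM (q of 0.00116 per the authors' deposited table), and all 8 markers of the stem cell niche fell, their sum going from 745 to 71.8 FPKM. RNA of WOX5 and of the other listed niche markers was thus lower, though not at 0, in the population sorted from pan. The marker list was chosen with earlier results of these data known, so its fall is not an independent check of the sorted cells.

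Class III peroxidases work in both directions on reactive oxygen. They use hydrogen peroxide to couple phenolics, cross-linking lignin, extensins and suberin and stiffening the wall, and they can also form hydroxyl radicals that loosen it. In the root their known sites of action include the Casparian strip of the endodermis, the tip-growing root hair, the xylem, and the zone where cells leave division for elongation, where the transcription factor UPB1 represses several of them. NADPH oxidases of the RBOH family supply much of the superoxide that becomes their substrate.

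The authors' test called 14 of the 33 tested members (42.4%), beside 3531 of 19789 genes tested in all (17.8%). Higher in pan were 10 members (30.3%), beside 8.01% of all tested genes, and lower were 4 members (12.1%), beside 9.83%. The median log2 change over the 33 was 0.54 and that over all tested genes was -0.17, so the members' median was 0.71 relative to it. The tested members are the more abundant ones and not the whole family, and abundant genes were called more often: of the 2168 tested genes at 100 FPKM or more in either genotype, 30.2% were called higher in pan, beside 8 of the 12 members at that level. A rise can itself bring a gene to that level, which 7 members reached in wild type and 12 in pan. Of the 9586 tested genes whose higher value lay between 10 and 100 FPKM, 14.6% were called lower, beside 4 of the 10 members at that level. A falling gene can enter this band through its wild type value alone, and the band holds every member called lower. Called higher in it were 2 of the 10 members, beside 757 of the 9586 genes. At 100 FPKM or more 0 of the 12 members were called lower, beside 218 of the 2168 genes. None of the 10 tested members between 1 and 10 FPKM was called. For these members, and for each gene group below with 0 genes called in a direction at a q under 0.05, the count at an unadjusted p under 0.05 was 0 as well. The shares over all tested genes, 8.01% called higher and 9.83% called lower, are to be read beside the count of each gene group below.

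**Figure D1:**
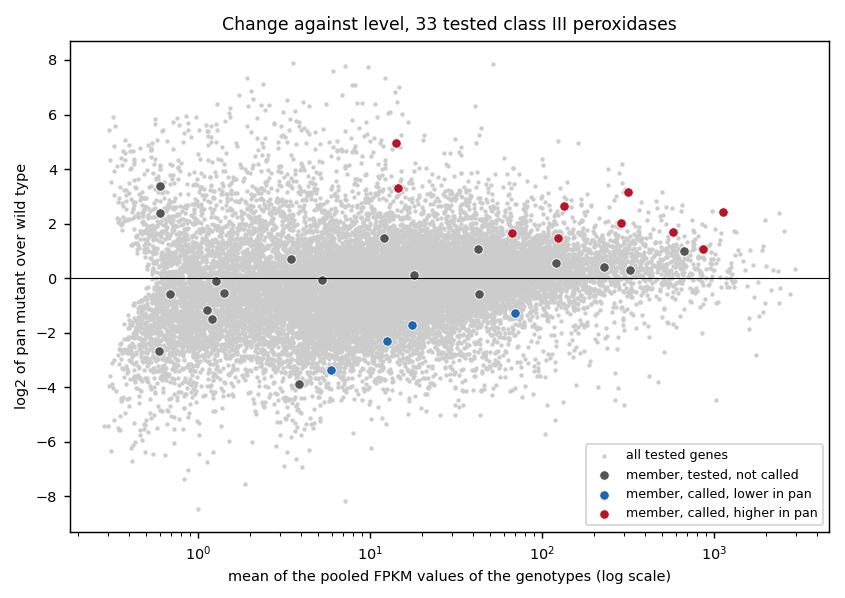
Change in pan over wild type (log2) against the mean of the pooled FPKM values (log axis) for all tested genes with a finite change (grey) and the 33 tested members (coloured by call). The members above 100 FPKM all lie above the line of no change, whereas those below 10 FPKM lie on both sides. All tested genes differ by level too. Of the 2168 reaching 100 FPKM in either genotype, 1496 had a positive change, whereas those reaching 1 to 10 FPKM had 2527 positive and 4380 negative changes.

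The proteins share a plan and differ widely in sequence. Translated from the RefSeq coding sequences (assembly TAIR10.1), the 52 members ran from 310 to 372 residues with a median of 330.5, and 51 of them held 8 or more cysteines, the number that forms the conserved disulfide bridges of this class. Identity between members had a median of 40.8% over 1326 pairs and ran from 29.1% to 100%. RefSeq names 12 of the 52, and the others are called by their locus identifiers.

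PAN belongs to the TGA group of bZIP factors, whose known target element holds the letters TGACG. The 300 bases before the RefSeq gene start are shown for 4 members that were picked for holding TGACG there. AT1G34510, AT4G26010 and AT5G15180 are the called members that hold it, and the other called members do not. AT3G01190, just outside the threshold for a call, is the closest relative of AT5G15180. The shares over whole sets are given after the sequences. Capitals mark TGACG on either strand (read as CGTCA on the other), and in AT3G01190 also a match to the root hair element, which overlaps the TGACG. Each run is written 5′ to 3′ on the gene's own strand from TAIR10.1 and ends at the last base before the gene start.
AT1G34510, chr1:12617033-12617332, minus strand: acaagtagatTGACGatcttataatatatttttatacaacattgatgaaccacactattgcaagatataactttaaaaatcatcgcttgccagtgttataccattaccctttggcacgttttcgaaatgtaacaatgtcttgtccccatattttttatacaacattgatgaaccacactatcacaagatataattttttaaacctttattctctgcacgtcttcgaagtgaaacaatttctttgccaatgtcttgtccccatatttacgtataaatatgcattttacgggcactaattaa
AT4G26010, chr4:13200114-13200413, plus strand: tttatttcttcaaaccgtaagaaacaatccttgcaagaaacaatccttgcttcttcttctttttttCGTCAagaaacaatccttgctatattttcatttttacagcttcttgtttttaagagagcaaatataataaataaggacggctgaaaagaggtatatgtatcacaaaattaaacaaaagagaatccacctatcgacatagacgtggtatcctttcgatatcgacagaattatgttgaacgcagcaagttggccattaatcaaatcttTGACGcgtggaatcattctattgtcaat
AT5G15180, chr5:4930125-4930424, plus strand: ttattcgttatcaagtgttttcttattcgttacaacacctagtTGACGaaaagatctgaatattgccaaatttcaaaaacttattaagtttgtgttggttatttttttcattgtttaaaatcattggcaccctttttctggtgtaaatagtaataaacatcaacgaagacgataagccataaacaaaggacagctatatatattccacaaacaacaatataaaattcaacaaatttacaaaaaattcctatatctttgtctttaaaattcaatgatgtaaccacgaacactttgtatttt
AT3G01190, chr3:68666-68965, minus strand: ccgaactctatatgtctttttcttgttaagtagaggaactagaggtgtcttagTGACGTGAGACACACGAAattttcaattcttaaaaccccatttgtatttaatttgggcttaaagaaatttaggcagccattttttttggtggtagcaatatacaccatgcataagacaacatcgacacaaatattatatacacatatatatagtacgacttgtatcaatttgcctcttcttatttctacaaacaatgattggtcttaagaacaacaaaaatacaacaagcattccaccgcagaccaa
The TGACG of AT1G34510 lies 290 to 286 bases before the gene start, that of AT5G15180 257 to 253 bases before it, and that of AT3G01190 247 to 243 bases before it. AT4G26010 holds a pair, at 234 to 230 bases on the reverse strand and at 28 to 24 bases on the forward strand.

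Counted over whole sets, TGACG was found upstream of 13 of 52 members (25.0%), beside 5843 of 27437 protein-coding genes (21.3%). It was found upstream of 3 of the 10 members called higher in pan (30.0%), of 0 of the 4 called lower and of 10 of the 38 not called (26.3%). The G-box CACGTG, another element read by bZIP and bHLH factors, was found in 0 of 52 members, beside 7.09% of all protein-coding genes. The root hair element, read by the root hair bHLH factors, was found in AT3G01190 alone among the members (1.92%), beside 0.915% of all protein-coding genes. Among the 21 other class III peroxidases of the genome, TGACG was found in 1 (4.76%), CACGTG in 3 (14.3%) and the root hair element in 2 (9.52%). A match describes letters in this window only.

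The summed level of the 52 members was higher in the mutant cells, through the most abundant members. In the authors' deposited table the sum came to 2813 FPKM (wild type) and 7422 FPKM (pan), at a ratio of 2.64. The members' share of the sum over all rows with a usable value went from 0.359% to 0.812%. AT5G17820 alone made up 12.5% of the wild type sum and 25.6% of the pan sum, and without it the ratio of the sums was 2.24. Members reaching 100 FPKM in either genotype, to which a rise can itself bring a member, summed to 2524 FPKM (wild type) and 7166 FPKM (pan). Those reaching 10 to 100 FPKM summed to 264 FPKM (wild type) and 237 FPKM (pan). The sum was also lower in pan for members reaching 1 to 10 FPKM, and higher for those under 1 FPKM. In these bulk samples, more cells of a type and more RNA per cell cannot be told apart.

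A few members carried most of this RNA. The 5 highest members held 68.1% of the sum over the 52 members in wild type and 73.0% in pan. In wild type the order per the authors' deposited table was AT4G30170 (553 FPKM), AT3G01190 (445), AT5G17820 (351), AT2G39040 (292) and AT5G64100 (274). In pan it was AT5G17820 (1899 FPKM), AT4G30170 (1166), AT3G01190 (894), AT5G64100 (888) and AT1G30870 (574), again per the authors' deposited table. With no spread over libraries, which neighbours in either order differ cannot be said. The number of members at 100 FPKM or more was 7 in wild type and 12 in pan.

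**Figure D2:**
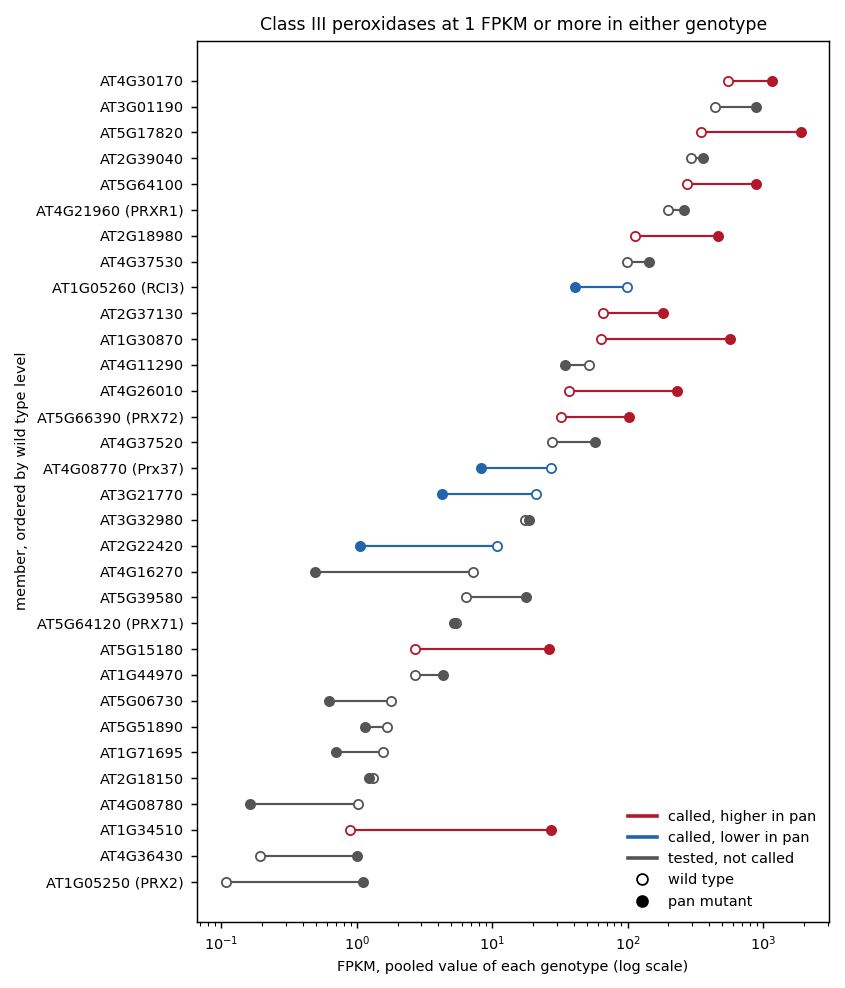
Pooled FPKM of the 32 members that reach 1 FPKM in either genotype, on a log axis, with open points for wild type, filled points for pan, and lines coloured by the call at q under 0.05. Of the 12 members that reach 100 FPKM in either genotype, 8 were called higher in pan and the other 4 lie higher in pan without a call. Of all 2168 tested genes at that level, 654 were called higher and 1496 had a positive change. Only 7 members reach 100 FPKM in wild type, so a rise can itself bring a member to that level. The 4 members called lower all start between 10.8 and 98.6 FPKM in wild type.

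At the other end, 20 members stayed under 1 FPKM in both genotypes, and 19 of these had not been tested. Listed at 0 (wild type) per the authors' deposited table are 14 members, and AT1G49570 is listed at 0 for both genotypes. The other 13 have pan values between 0.0104 and 0.664 FPKM, the highest being AT4G33420. The genotypes did not resolve low levels equally: FPKM times transcript length in kilobases, whose lowest values above 0 approach the worth of 1 fragment, had a 0.1 percentile of 0.0352 for wild type against 0.00349 for pan. Of the 13 pan values, 11 exceed the wild type floor for a transcript of their length, which lies between 0.0142 and 0.0347 FPKM. No fold is given for these genes. The locus of AT5G14130, 1 of the 13, overlaps that of another row, so its value is uncertain.

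Root hair peroxidases were called higher in pan only. Of 5 class III peroxidases known to act in root hair growth, 4 are members, AT1G05240, AT4G26010, AT5G39580 and AT5G64100, and the fifth is AT5G67400, named RHS19 in RefSeq. AT5G64100 (chromosome 5, 25650641 to 25652123 on TAIR10) rose from 274 to 888 FPKM (the authors' deposited table), with a log2 change of 1.70 and a q of 0.00116. AT4G26010 (chromosome 4, 13200593 to 13201941) rose from 37.1 to 231 FPKM (the authors' deposited table), with a log2 change of 2.64 and a q of 0.00116. Both were abundant in pan. RHS19 rose as well, from 56.9 to 554 FPKM per the authors' deposited table (log2 3.28, q of 0.00116). AT5G39580, which RefSeq also notes for a defence response to fungus, had 6.39 FPKM (wild type) and 17.7 FPKM (pan) and was not called (q of 0.547 per the authors' deposited table). AT1G05240 was listed at 0 (wild type) and 0.0175 FPKM (pan) and was not tested. In counts, 3 of the 4 tested genes of this group rose, 0 fell, and the median log2 change was 2.17. Markers of epidermis and root hair moved with them: of 10 such genes 5 rose and 0 fell (9 higher at an unadjusted p under 0.05), and their sum was 511 FPKM (wild type) and 1631 FPKM (pan). Among them RSL4, the bHLH factor of hair growth, rose from 18.5 to 110 FPKM (q of 0.00116 per the authors' deposited table). The part of this shift in the change of the root hair peroxidases was not tested.

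AT5G17820 was the member with the highest level in pan and is 1 of the 3 peroxidases known as targets of repression by UPB1 in the root tip. It lies on chromosome 5 at 5887906 to 5890193 (TAIR10). Its level rose from 351 to 1899 FPKM (the authors' deposited table), with a log2 change of 2.43 and a q of 0.00116. The other UPB1 targets were not called. AT4G11290 had 51.9 FPKM (wild type) and 34.7 FPKM (pan) (q of 0.420), and AT4G16270 had 7.23 and 0.491 FPKM (log2 -3.88, q of 0.262) per the authors' deposited table. The locus of AT4G16270 overlaps that of another row, so the reads of these genes may not have been separated. UPB1 itself stood at 61.8 FPKM (wild type) and 73.2 FPKM (pan) and was not called (q of 0.753 per the authors' deposited table). So 1 of these 3 peroxidases rose and 0 fell, with a median log2 change of -0.58.

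The 5 peroxidases known to act together in lignifying the Casparian strip, the endodermal barrier, moved in different directions. They are RCI3 (AT1G05260), AT1G44970, AT4G11290, PRX72 (AT5G66390) and PER64 (AT5G42180), of which the last is not a member. PRX72, noted in RefSeq for lignin biosynthesis (chromosome 5, 26515916 to 26517391), rose from 32.1 to 102 FPKM (the authors' deposited table), with a log2 change of 1.66 and a q of 0.0310. RCI3, a cold-inducible cationic peroxidase (chromosome 1, 1529767 to 1531439), fell from 98.6 to 41.2 FPKM (the authors' deposited table), with a log2 change of -1.26 and a q of 0.0283. The other genes of the group were not called. PER64 had 26.4 FPKM (wild type) and 78.7 FPKM (pan) (q of 0.305), and AT1G44970 had 2.67 and 4.34 FPKM (q of 0.602), per the authors' deposited table. The group thus held 1 gene that rose and 1 that fell among 5 tested, with a median log2 change of 0.70. Endodermis markers rose in 1 of 8 cases and fell in 0, with sums of 136 FPKM (wild type) and 317 FPKM (pan); the rise was that of CASP1, a Casparian strip scaffold protein, from 48.4 to 145 FPKM (q of 0.0435 per the authors' deposited table). The part of these cells in the values was not tested.

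Peroxidases tied to lignin in stems, vessels and other tissues were mostly low in these cells. Of 8 such members, 5 were tested, with 1 rise (PRX72, above), 1 fall and a median log2 change of -0.05, which becomes 0.11 relative to the median of all tested genes. The fall was that of AT2G22420 (chromosome 2, 9513219 to 9514535), from 10.8 to 1.06 FPKM (the authors' deposited table), with a log2 change of -3.35 and a q of 0.0137. The remaining tested genes stayed close to or below 5 FPKM. PRX71 (AT5G64120), induced by low osmolarity, had 5.40 and 5.20 FPKM (q of 0.969), AT5G51890, noted for lignification of tracheary elements, had 1.68 and 1.14 FPKM (q of 0.751), and PRX2 (AT1G05250), a cell wall peroxidase, had 0.107 and 1.11 FPKM (q of 0.196), in wild type and pan of the authors' deposited table. PRX25 (AT2G41480), PRX52 (AT5G05340) and AT4G33420 were not tested and lay under 1 FPKM in both genotypes.

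Among peroxidases known from defence and wall remodelling, Prx37 (AT4G08770), which is expressed in vascular bundles and whose overexpression dwarfs the plant, fell from 27.0 to 8.21 FPKM per the authors' deposited table (log2 -1.72, q of 0.0324, chromosome 4, 5598115 to 5600312). PRXCA (AT3G49110) and PRXCB (AT3G49120), which RefSeq notes for cell elongation and for making hydrogen peroxide in defence, were nearly silent here. PRXCB had 0.822 and 0.554 FPKM (q of 0.803) and PRXCA was listed at 0 (wild type) and 0.270 FPKM (pan), not tested, per the authors' deposited table. With AT5G17820 and PRX71, which also belong to it, this group of 5 had 1 rise and 1 fall among 4 tested genes and a median log2 change of -0.31. Peroxidases known from reproductive tissue were low as well: PER36 (AT3G50990), which acts in mucilage extrusion by the seed coat, was listed at 0 (wild type) and 0.0378 FPKM (pan) per the authors' deposited table, and neither of the tested genes of that group, AT1G44970 and AT4G16270, was called. The median log2 change of these tested genes, which lie at 0.70 and -3.88, was -1.59, and -0.96 with a pseudocount of 1.

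The largest rises among called members lay outside these role groups. AT1G34510 (chromosome 1, 12615733 to 12617032) rose from 0.884 to 27.3 FPKM (the authors' deposited table), with a log2 change of 4.95 and a q of 0.0247. AT5G15180 (chromosome 5, 4930519 to 4932363) rose from 2.68 to 26.5 FPKM (the authors' deposited table), with a log2 change of 3.30 and a q of 0.0403. Both had low wild type values, at ranks 30 and 23 of 52, and the size of their change depends on them. On a log2 scale with 5 FPKM added to both values, the change was 2.46 for AT1G34510 and 2.03 for AT5G15180.

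Other members outside the role groups were abundant. AT1G30870 (chromosome 1, 10991485 to 10993023) rose from 63.5 to 574 FPKM (the authors' deposited table), with a log2 change of 3.18 and a q of 0.00116. It passed from rank 11 to rank 5 of the 52 members. AT2G18980 (chromosome 2, 8233335 to 8235316) rose from 113 to 462 FPKM (the authors' deposited table), with a log2 change of 2.03 and a q of 0.00116. AT2G37130, noted for a defence response to fungus (chromosome 2, 15597921 to 15600077), rose from 65.6 to 181 FPKM (the authors' deposited table), with a log2 change of 1.47 and a q of 0.00116. AT4G30170, the highest member in wild type (chromosome 4, 14762841 to 14764627), rose by the smallest factor of the called members, from 553 to 1166 FPKM (log2 1.08, q of 0.0195 per the authors' deposited table). Of the called members outside the role groups, AT3G21770 alone fell (chromosome 3, 7673276 to 7674839), from 21.0 to 4.26 FPKM (the authors' deposited table), with a log2 change of -2.30 and a q of 0.0235.

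Some of the most abundant members were not called. AT3G01190 had 445 FPKM (wild type) and 894 FPKM (pan), a log2 difference of 1.01, and lay just outside the threshold with a q of 0.0521 per the authors' deposited table. The next outside was AT4G37520, with 27.4 and 57.8 FPKM and a q of 0.0782 per the authors' deposited table, while AT5G15180 and Prx37 were the last inside. AT2G39040 had 292 and 362 FPKM (q of 0.558), PRXR1 (AT4G21960) had 199 and 263 FPKM (q of 0.417), and AT4G37530 had 98.8 and 144 FPKM (q of 0.322), per the authors' deposited table. Values of all 5 were higher in pan, by a factor of 1.24 for AT2G39040 to 2.11 for AT4G37520. Of the members between 10 and 100 FPKM, AT3G32980 differed least, with 17.3 and 18.6 FPKM (q of 0.915 per the authors' deposited table).

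Members that are each other's closest relative in protein sequence formed 16 pairs, and in 8 of these both genes were tested. The changes of both genes had the same sign in 7 of the 8 pairs. Among the 33 tested members 20 changes were positive and 13 negative, so unrelated members would often share a sign too. In 3 pairs both genes were called, each time in 1 direction: AT2G18980 and AT4G30170 (81.1% identical) rose, AT1G34510 and AT4G26010 (64.2%) rose, and RCI3 and AT3G21770 (72.1%) fell, with the values given above. The exception in sign was AT5G39580 and PRX71 (76.5%), neither of which was called. Coding DNA was 69.5% to 79.4% identical in the pairs with both genes called. Where identity was higher, as in Prx37 and AT4G08780 (93.8% of coding bases), short reads can fit either gene, and the sources used here do not give how such reads were divided.

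**Figure D3:**
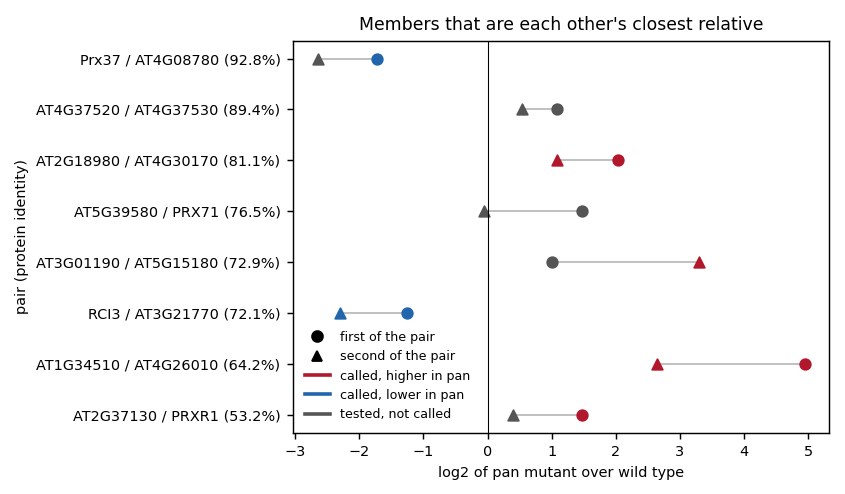
Change in pan over wild type (log2) for the 8 pairs of closest relatives with both genes tested, ordered by protein identity, with a circle for the first and a triangle for the second gene of each pair and colours for the call. In 7 pairs both symbols lie on the same side of the line of no change, and the pairs called in full lie at 81.1%, 72.1% and 64.2% identity.

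Neighbouring copies on the chromosome had very different levels in some runs and similar ones in others. The chromosome 5 run AT5G64100, AT5G64110 and PRX71, with no other gene between them, had 888, 0.196 and 5.20 FPKM (pan) per the authors' deposited table, a ratio of 171 between the first and the last. In wild type the values were 274, 0 and 5.40 FPKM, so the ratio in pan includes the rise of AT5G64100. On chromosome 4, Prx37 had 27.0 FPKM in wild type and its neighbour AT4G08780 had 1.03 FPKM per the authors' deposited table, a ratio of 26.3, and AT4G08780 was not called (q of 0.259). In pan their values were 8.21 and 0.164 FPKM. The neighbours AT4G37520 and AT4G37530 were both present, at 27.4 and 98.8 FPKM in wild type and 57.8 and 144 FPKM (pan) per the authors' deposited table, and neither was called. Other neighbours were alike in being low: AT2G38380 and AT2G38390 had 0.0676 and 0.0660 FPKM (pan), AT5G58390 and AT5G58400 had 0.0439 and 0.0589 FPKM (pan), and PA2 (AT5G06720) and AT5G06730 had 0.444 and 0.625 FPKM (pan), per the authors' deposited table. In wild type all of them lay under 2 FPKM as well, with PA2 at 0.371 and AT5G06730 at 1.78 FPKM. On chromosome 1, AT1G05240 and PRX2 encode identical proteins from coding sequences that are 100% identical, so the values of these copies, both under 2 FPKM, are uncertain, while their neighbour RCI3, 48.3% identical to PRX2, was measured at 98.6 FPKM (wild type) per the authors' deposited table.

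The remaining 21 class III peroxidases of the genome list, which are not members, had 20 rows of their own, and 13 were tested. Of these 2 rose and 2 fell, with a median log2 change of 0.30. The rises were RHS19 and AT3G49960, which RefSeq notes as enriched in root hair cells and which went from 60.3 to 534 FPKM per the authors' deposited table (log2 3.15, q of 0.00116). The falls were AT5G24070, from 81.3 to 33.8 FPKM (q of 0.0291), and AT2G43480, from 51.0 to 20.5 FPKM (q of 0.0426), per the authors' deposited table. RHS18 (AT5G22410), another root hair gene, had 43.5 and 93.7 FPKM and was not called (q of 0.126 per the authors' deposited table).

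NADPH oxidases, the source of superoxide upstream of the peroxidases, were called in 1 direction. Of 10 genes 8 were tested, 5 rose and 0 fell, beside 8.01% called higher and 9.83% called lower among all tested genes. The 7 with a finite change had a median log2 change of 2.26. RHD2 (AT5G51060), the oxidase of root hair tips, rose from 24.4 to 90.6 FPKM (log2 1.89, q of 0.00116 per the authors' deposited table). AT4G25090 rose from 4.54 to 38.2 FPKM per the authors' deposited table (log2 3.07, q of 0.00202), and AT1G64060 (RBOHF), which supplies the Casparian strip, rose from 13.4 to 64.3 FPKM (log2 2.26, q of 0.00116 per the authors' deposited table). AT1G19230 rose from 4.06 to 21.7 FPKM (q of 0.0186) and AT4G11230 from 0.168 to 4.34 FPKM (q of 0.0283) per the authors' deposited table.

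For other enzymes of peroxide turnover and lignin, the share called ran from 0% of tested ascorbate peroxidases and catalases to 25.0% of tested laccases. Over all tested genes it was 17.8%. Among ascorbate peroxidases and catalases, which remove hydrogen peroxide inside the cell, 0 of 8 tested genes were called and the median log2 change was 0.22; the highest, APX1, had 830 FPKM (wild type) and 1072 FPKM (pan) (q of 0.424 per the authors' deposited table). Among superoxide dismutases 1 of 6 tested fell and 0 rose (median log2 change -0.09, or 0.08 relative to the median of all tested genes): FSD3, of the chloroplast, from 22.0 to 5.80 FPKM per the authors' deposited table (q of 0.0295). Among laccases, which couple monolignols without peroxide, 1 of 8 tested rose and 1 fell (median log2 change 0.61): LAC9 from 0.479 to 12.4 FPKM (q of 0.0405) and LAC1 from 12.5 to 1.02 FPKM (q of 0.00574) per the authors' deposited table. Of 17 tested genes of monolignol synthesis, 1 rose and 0 fell (median log2 change 0.28); the rise was OMT1, a methyltransferase of that pathway, from 72.2 to 166 FPKM (q of 0.0121 per the authors' deposited table).

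**Figure D4:**
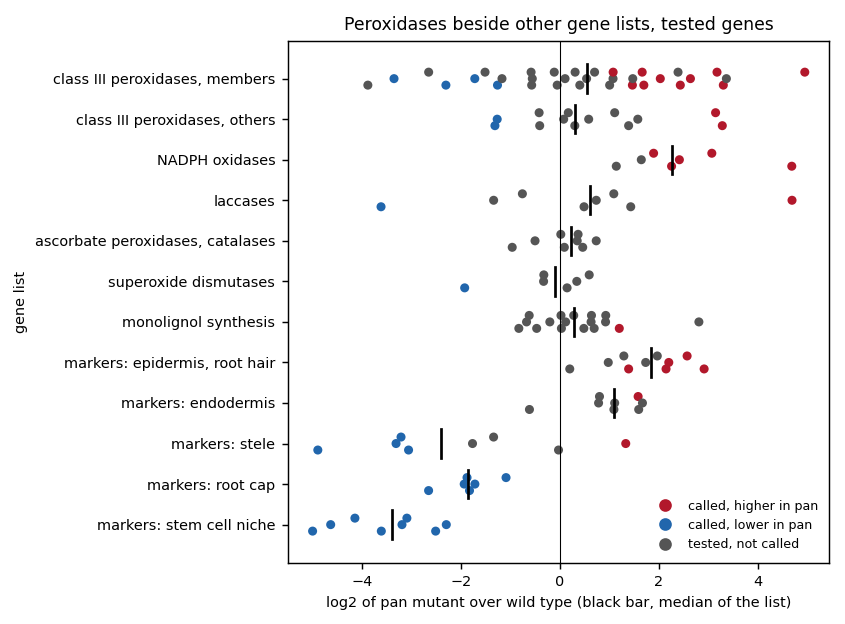
Change in pan over wild type (log2) of the tested genes with a finite change in each list, with 1 point per gene coloured by its call and a black bar at the list's median. The medians run from -3.40 for the stem cell niche markers to 2.26 for the NADPH oxidases, with the class III peroxidase members at 0.54.

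Markers of other cell types moved between the sorted populations as well, beside those of the niche, the epidermis and the endodermis given above. Root cap markers fell in 6 of 6 cases, with sums of 646 and 219 FPKM. Stele markers rose in 1 and fell in 4 of 8 tested cases, with sums of 80.7 and 78.7 FPKM. No tested marker in these lists was listed at 0 in either genotype. The part of these shifts in the peroxidase changes was not tested.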

How the data were processed

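RNA of 8 libraries (4 per genotype) was amplified from sorted cells and sequenced; the submitters' processing notes name Cuffdiff, Cufflinks 2.1.1, TopHat2 2.0.13 and the TAIR10 build, without roles or settings. Neither kit is stated to keep strand. The authors deposited 1 pooled FPKM value per genotype and gene, in the layout of a Cuffdiff result. The log2 change was deposited by the authors as pan over wild type, without a pseudocount, and the authors' test statistic is a score that was not used. The deposited p-value is adjusted by the authors to a q-value; a Benjamini-Hochberg adjustment of the p-values of all 19789 tested genes matched these within 5.25e-07. The smallest p-value is 5e-05 (q of 0.00116), shared by 6 members, so their order is not resolved.

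With no value per library, the planned model of the libraries was replaced by a description of the authors' comparison, and depth is unknown. The members and all gene lists were chosen with earlier results of these data known, the role groups from general knowledge. Members named are those called, those at 100 FPKM or more, those nearest the threshold, neighbours, and some others, mostly of the role groups. From other lists a selection of genes was named, most of them called. All 52 identifiers matched RefSeq (TAIR10.1), used for names, upstream bases and coding sequences; all 27418 matched nuclear rows overlap the same gene there. Coordinates of genes are those of the table, written 1-based. Calculations used Python 3.11.15, pandas 2.3.3, numpy 2.4.6 and Biopython 1.88, and the counting steps were tested on simulated data.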

Additional observations from a re-analysis of the deposited data

How the results depend on the processing

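No paired analysis was possible because the deposited table holds 1 pooled value per genotype, and for the same reason leaving out single libraries was not run. A mean of at least 5 FPKM, or a change of at least 1 on the log2(FPKM + 1) scale, left the counts at 10 members higher and 4 lower. Neither filter could remove a called member. All 14 reach at least 10.8 FPKM in 1 genotype, and some pass the mean filter only through the genotype where they are higher. Their smallest change on the log2(FPKM + 1) scale was 1.08, for AT4G30170. At a q under 0.01 the counts were 6 higher and 0 lower, while 14 members are called at 0.05 and 4 are lower at an unadjusted p under 0.05. The members' median log2 change, 0.54, stayed above 0 throughout, though neither a pseudocount nor the scaling below could make it negative. It was 0.28 with a pseudocount of 5, 1.07 at a mean of at least 5 FPKM, 0.71 after scaling by the median of all tested genes (-0.17), and 0.55 after centring in 20 expression bins; the cause of these shifts was not tested. Of 72 alternative values for 18 named members, 0 changed sign, but none of them could. A pseudocount keeps the sign of every change, and the scaling shift is smaller in size than any of these 18 changes. By over 1.5-fold moved 6 of the 72, all with a pseudocount of 1 or 5 (AT1G34510, AT2G22420, AT3G21770 and AT5G15180). Of 18 list medians 0 changed sign with a pseudocount of 1, which alters the sign of no gene. By over 1.5-fold moved 2 of them, the reproductive group (-1.59 to -0.96) and the stele markers (-2.41 to -1.21). Depth per library is unknown, and low wild type values are the least resolved.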

Other observations

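Net charge, counted as lysines and arginines minus aspartates and glutamates in the translated coding sequence, ran from -20 to 17 over the 52 members, with 32 positive and 18 negative. The 10 members called higher in pan had a median of 10 and 8 of them were positive, the 4 called lower had a median of 3 with 3 positive, the 19 tested but not called had a median of 4 with 13 positive, and the 19 not tested had a median of -1 with 8 positive. Cationic and anionic class III peroxidases are a long-used division of the family by their behaviour in gels. This pattern was seen after the values were known and was not tested.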
